A study of Mus musculus with 12 samples.

Results

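Transcripts of cytotoxic lymphocytes and of the NKG2D system were followed in pancreatic islets of 4 mouse genotypes. The set holds 9 genes: the granzymes Gzma, Gzmb and Gzmk, the pore-forming protein Prf1, the granule membrane protein Nkg7, the receptor chains Klrd1 (CD94) and Klrk1 (NKG2D), the death ligand Fasl, and Raet1e, a ligand of NKG2D. The 9 genes were listed with values of these arrays over all 4 genotypes already known, so their differences between genotypes are described here and carry no test. They are represented by 11 of the 41174 probes of the array and by 9 of the 17305 genes that the probes could be assigned to through RefSeq accessions. Nkg7 and Fasl have 2 probes each, and a gene is represented below by its brighter probe. A probe counts as detected on an array where the scanner software set it well above background. By that criterion 5 of the 9 genes were detected on all 3 arrays of at least 1 genotype, and 2 of them, Gzmk and Klrk1, were detected on no array.

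The arrays were 3 per genotype, 12 in all, each hybridised with RNA pooled from the islets of several female mice of mixed C57BL/6 x Sv129 background on a chow diet, at 4 weeks of age in the labels and at a slightly higher age in the study's text. WT mice carried neither defect, PPARγ2KO mice lacked the γ2 isoform of the nuclear receptor PPARγ in every tissue, ob/ob mice lacked leptin and are obese and insulin resistant, and POKO mice lacked both. Isolated islets were hand-picked and cultured overnight before extraction. Since every sample was bulk RNA, a change in the number of cells of a type and a change in RNA per cell cannot be told apart.

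The gene Pparg, which encodes the targeted isoform together with others, had normalized log2 signals of 6.41 to 7.44 on the 6 PPARγ2-null arrays and 8.54 to 9.77 on the other 6, with no overlap, while Lep, a gene of fat cells, was below detection on all 12 arrays and so checks no label. The islet markers Ins1 (17.07 to 18.62) and Ins2 (18.90 to 18.95) were near the top of the scale on every array, and so was the mean of 11 acinar cell genes (17.87 to 18.08). The median processed signal before normalization was 20.9 to 27.0 in WT and 30.7 to 40.6 in ob/ob. Each of the 3 slides held 1 array of each genotype, always at the same position, so slide position and genotype cannot be told apart.

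The second PPARγ2KO array stood apart from its group. On it, 5 of the 9 members, 9 of 13 T cell markers, 8 of 11 markers of naive lymphocytes and lymphoid tissue, 8 of 10 B cell markers and 6 of 11 macrophage markers were at least 1 log2 unit above the mean of the other 2 PPARγ2KO arrays, against 0 of 11 acinar and 0 of 11 β-cell markers. Of the β-cell markers 1 was at least 1 log2 unit below that mean, and their median difference was −0.41. The main values that rest on PPARγ2KO are given with and without this array.

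Natural killer (NK) cells and CD8 T cells kill by emptying granules onto a target. Perforin opens the target membrane, granzymes pass through and cleave proteins that start cell death, and the Fas ligand reaches the same end through the receptor Fas. NKG2D is an activating receptor of both cell types that recognises stress-induced proteins such as the RAE-1 family, to which Raet1e belongs, and signals through the adaptors DAP10 (Hcst) and DAP12 (Tyrobp). CD94 pairs with NKG2 chains to read the non-classical molecule Qa-1. In the islet, these cells are best known from autoimmune diabetes, where cytotoxic T cells destroy β-cells.

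The promoters of 3 members whose signals were high on the same arrays are shown because each holds the RUNX core TGTGGT, and that of Raet1e because it holds neither marked motif. The T-box core is in those of Prf1 and Nkg7 but not of Gzmb. The windows run from 250 bases before to 50 bases after the annotated start (RefSeq, build GRCm38.p6), 5′ to 3′ on the strand of the gene, and capitals mark the RUNX core TGTGGT and the T-box core AGGTGT, read on either strand. The windows are chr14:56262285-56262584 on the minus strand for Gzmb, chr10:61297586-61297885 on the plus strand for Prf1, chr7:43436888-43437187 on the plus strand for Nkg7, and chr10:22158319-22158618 on the plus strand for the first of 2 windows of Raet1e.
Gzmb: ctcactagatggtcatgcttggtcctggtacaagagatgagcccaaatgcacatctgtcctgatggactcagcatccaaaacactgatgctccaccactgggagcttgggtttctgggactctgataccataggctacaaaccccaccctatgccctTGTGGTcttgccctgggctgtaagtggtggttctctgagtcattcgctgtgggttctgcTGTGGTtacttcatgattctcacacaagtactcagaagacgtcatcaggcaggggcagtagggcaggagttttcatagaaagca
Prf1: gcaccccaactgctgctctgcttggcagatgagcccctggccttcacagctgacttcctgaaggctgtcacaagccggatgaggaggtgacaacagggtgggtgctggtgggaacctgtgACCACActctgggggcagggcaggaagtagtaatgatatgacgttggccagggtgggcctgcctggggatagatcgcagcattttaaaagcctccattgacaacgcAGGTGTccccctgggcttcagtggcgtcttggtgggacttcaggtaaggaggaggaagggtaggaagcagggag
Nkg7: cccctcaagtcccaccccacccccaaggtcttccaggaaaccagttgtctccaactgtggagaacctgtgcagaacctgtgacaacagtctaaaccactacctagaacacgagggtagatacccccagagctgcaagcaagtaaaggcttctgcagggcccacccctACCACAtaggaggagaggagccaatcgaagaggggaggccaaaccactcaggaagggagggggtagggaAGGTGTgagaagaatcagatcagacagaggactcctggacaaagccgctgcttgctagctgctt
Raet1e: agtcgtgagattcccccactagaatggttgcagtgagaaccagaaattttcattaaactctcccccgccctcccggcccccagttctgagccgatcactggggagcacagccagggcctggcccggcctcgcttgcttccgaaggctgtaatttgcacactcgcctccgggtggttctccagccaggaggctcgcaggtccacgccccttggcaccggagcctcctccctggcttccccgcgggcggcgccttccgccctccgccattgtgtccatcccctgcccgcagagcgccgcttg

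Windows were found for 8 of the 9 members, Klrd1 being the exception. TGTGGT, bound by RUNX factors such as RUNX3 of CD8 T cells, was present on either strand in the windows of 5 genes, Gzma, Gzmb, Prf1, Nkg7 and Klrk1, and in 16.8% of all 32851 windows. In Gzmb it began at positions −93 and −34 from the start. AGGTGT, bound by T-box factors such as T-bet and eomesodermin, was present in 4 of the 8, Gzma, Gzmk, Prf1 and Nkg7, and in 13.7% of all windows. The ETS core AGGAAG was present in 4 of the 8 and in 35.4% of all windows. The AP-1 motif TGANTCA, where N is any base, was in 2 of the 8 and in 7.81% of all windows. For the NFAT core GGAAAA these were 2 of the 8 and 23.4%. The PPAR/RXR direct repeat, which is AGGTCA followed by any base and AGGTCA again, was found in none of the 8 and in 0.0396% of all windows, and the single AGGTCA, which lies in every full repeat, in none of the 8 and in 16.3% of all windows. The 2 marked motifs did not overlap in the windows printed. A match is a description of the letters and not a binding site.

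Of the 5 granule genes among the members, Gzmb, Prf1 and Nkg7 had higher signals on every ob/ob and POKO array than on any WT array, Gzma only in ob/ob, and Gzmk was not detected. Gzmb, the granzyme that cleaves caspases and Bid, had log2 signals of 1.42, 2.76 and 1.44 in WT, 1.41, 6.96 and 1.86 in PPARγ2KO, 6.65, 5.87 and 7.48 in ob/ob, and 4.96, 5.40 and 6.71 in POKO. All 6 leptin-deficient arrays lay above all WT arrays, and the ob/ob and POKO values overlapped. No WT array detected the probe, so the ob/ob level was at least 7.22-fold higher than WT and the POKO level at least 3.67-fold higher. The fitted log2 difference from WT was 4.79 with a standard error (SE) of 1.29 in ob/ob and 3.82 (SE 1.29) in POKO. These are not exact folds, because they start from a WT level below detection. With normexp background correction, which compresses signals near background and here used the median signal, the differences from WT were 0.59 and 0.35.

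Prf1, which encodes perforin, had its lowest mean in WT. Its signals were 1.40, 1.81 and 1.42 in WT, 1.61, 5.27 and 2.26 in PPARγ2KO, 4.23, 3.40 and 5.0 in ob/ob, and 3.41, 3.27 and 4.15 in POKO. The leptin-deficient arrays again lay above all WT arrays, but only 2 of the 3 ob/ob and 1 of the 3 POKO arrays were well above background, so these levels are close to the limit of the measurement. No WT array detected the probe, and not every ob/ob or POKO array did, so no fold is given for either.

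Gzma, the granzyme with tryptase activity, differed between ob/ob and POKO in its overlap with WT. It had 1.87, 2.02 and 3.01 in WT, 2.44, 4.83 and 3.00 in PPARγ2KO, 4.82, 3.82 and 4.77 in ob/ob, and 4.01, 2.69 and 2.64 in POKO. The ob/ob arrays lay above all WT arrays, whereas the POKO arrays overlapped both. The ob/ob level was at least 1.58-fold above WT, and the fitted difference between POKO and ob/ob was −1.36 log2 (SE 0.64). Only 1 of the 3 POKO arrays was well above background, so that difference is not exact. Gzmk, a granzyme of memory CD8 T cells, was at 1.07 to 2.6 and not well above background on any of the 12 arrays.

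Nkg7, a granule membrane protein needed for degranulation, had 3.25, 3.66 and 4.80 in WT, 2.63, 7.15 and 3.53 in PPARγ2KO, 6.14, 6.47 and 7.44 in ob/ob, and 6.63, 5.68 and 6.58 in POKO. WT lay below ob/ob and POKO without overlap, and ob/ob and POKO shared a range. The log2 difference from WT was 2.78 (SE 1.01) in ob/ob and 2.39 (SE 1.01) in POKO. This probe was detected on 1 of 3 WT arrays, so these are not exact folds. The dimmer Nkg7 probe was detected on no WT array and lay at least 2.11-fold above WT in ob/ob and at least 1.67-fold in POKO.

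**Figure D1:**
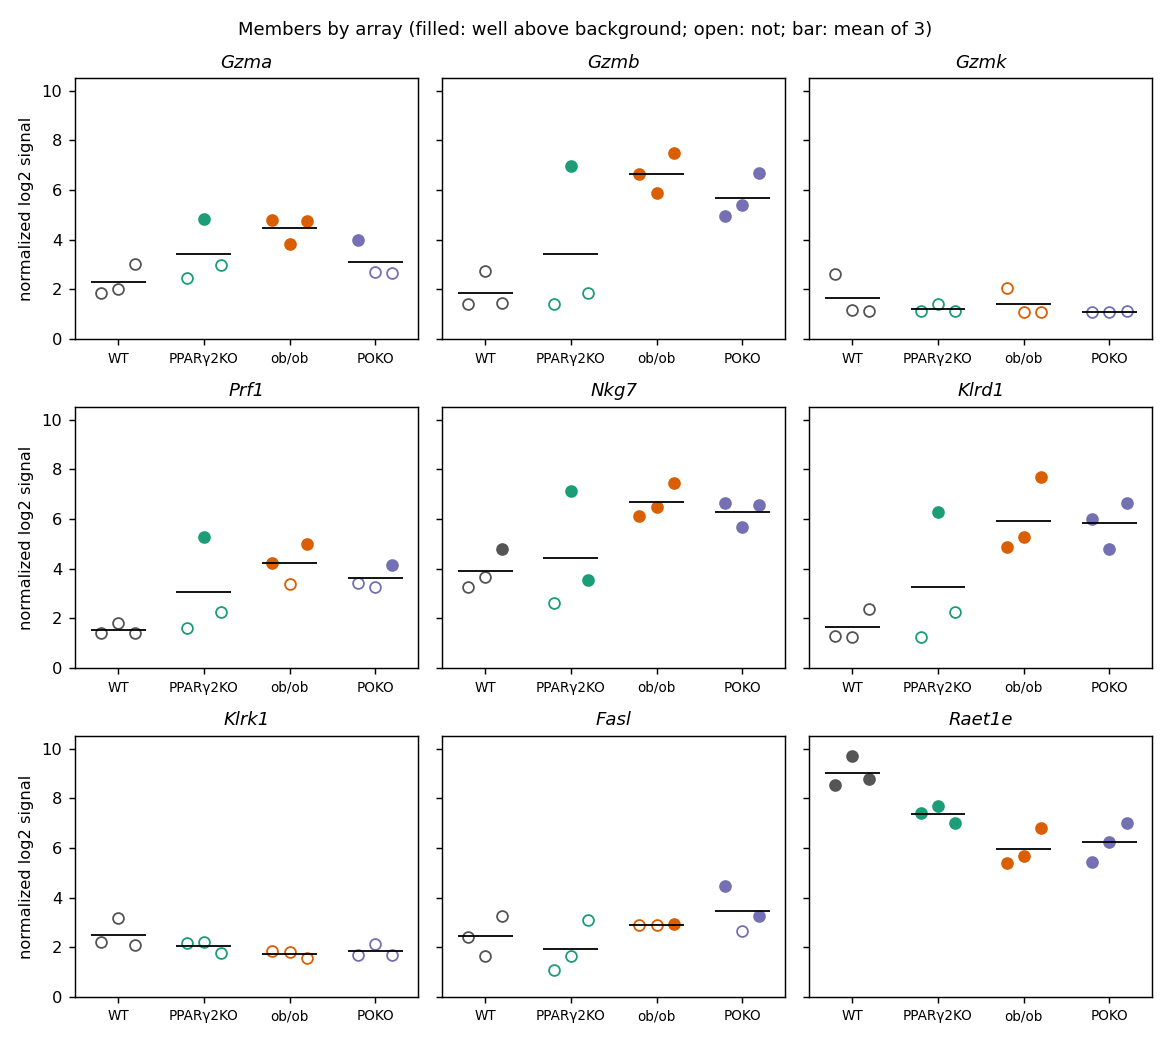
Normalized log2 signal (y axis) of the 9 members on each of the 3 arrays of WT, PPARγ2KO, ob/ob and POKO (x axis), with filled points for arrays where the probe was well above background, open points for the others, and a bar at the mean. Gzmb, Prf1, Nkg7 and Klrd1 lie above WT on all ob/ob and POKO arrays and on the second PPARγ2KO array, Raet1e lies highest in WT, and Gzmk and Klrk1 have open points only.

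Receptor genes split by detection. Klrd1, the CD94 chain of NK and CD8 T cells, had 1.27, 1.26 and 2.39 in WT, 1.26, 6.29 and 2.24 in PPARγ2KO, 4.87, 5.26 and 7.68 in ob/ob, and 6.01, 4.81 and 6.64 in POKO. The probe was detected on every ob/ob and POKO array and on no WT array, and the levels were at least 4.36-fold and at least 4.02-fold above WT. The fitted POKO difference from ob/ob was −0.12 log2 (SE 1.24), with ranges that overlapped.

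Klrk1, the receptor NKG2D itself, was at 2.22, 3.17 and 2.07 in WT, 2.15, 2.19 and 1.75 in PPARγ2KO, 1.83, 1.81 and 1.55 in ob/ob, and 1.69, 2.15 and 1.67 in POKO. None of these values was well above background, so no fold is given. At this signal the receptor transcript could not be measured. Fasl, the death ligand, was near background as well: its brighter probe was detected on 1 ob/ob and 2 POKO arrays, with a range of 1.1 to 4.45 over all 12, and its other probe was detected on none.

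Raet1e, the NKG2D ligand, ran the other way and was the only member detected on all 12 arrays. Its log2 signals were 8.52, 9.71 and 8.77 in WT, 7.39, 7.68 and 7.02 in PPARγ2KO, 5.40, 5.67 and 6.81 in ob/ob, and 5.43, 6.22 and 7.01 in POKO. The WT arrays were highest and the PPARγ2KO arrays next, neither overlapping any other genotype although the lowest PPARγ2KO array lay only just above the highest POKO array, and the ob/ob and POKO arrays overlapped. The mean signal was 9.0 ± 0.63 (SD, n = 3) in WT, 7.36 ± 0.33 in PPARγ2KO, 5.96 ± 0.75 in ob/ob and 6.22 ± 0.79 in POKO. These are 8.23-fold below WT in ob/ob (log2 −3.04, SE 0.50), 6.87-fold in POKO (−2.78, SE 0.50) and 3.11-fold in PPARγ2KO (−1.64, SE 0.50). With normexp background correction the log2 difference was −1.30 in ob/ob and −1.22 in POKO.

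From ob/ob to POKO the Raet1e difference was 0.26 (SE 0.50) with overlapping arrays, against −1.64 from WT to PPARγ2KO, and these changes differed by 1.90 (SE 0.70), or by 2.06 without the second PPARγ2KO array. Without the second PPARγ2KO array the lean difference was −1.80. The processed signal before normalization had the same order, from 309, 771 and 411 in WT to 137, 189 and 128 in PPARγ2KO, 42.7, 64.8 and 145 in ob/ob and 49.2, 77.4 and 135 in POKO. On that scale the PPARγ2KO range overlaps those of ob/ob and POKO. Over the 12 arrays the normalized Raet1e signal had a Pearson r of −0.73 with the log2 median signal of the array, and that of Klrd1 an r of 0.79. Overall array brightness differs between the genotypes, and its part in these levels was not tested.

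Among the 41174 probes, 3.56% were called higher and 1.91% lower in ob/ob against WT (limma, adjusted p of at most 0.05 over all probes and a change of at least 1 on the log2 scale), 11.3% were higher and 29.9% lower without overlap, and the median difference was −0.08 log2. Of the 9 members, 1 was called higher (Gzmb), 1 lower (Raet1e), 5 were higher without overlap and 2 lower, with a median of 2.17. Over 21 alternatives Gzmb stayed past the limits in 10 and Raet1e in 18, and neither did without WT array 2 or ob/ob array 2. With the slide as a block 1 of the 2 stayed past them. In POKO against WT the shares called were 0.151% higher and 0.0219% lower, those without overlap 9.23% and 25.6%, and the median difference −0.08 log2. There, 0 members were called, 4 were higher without overlap and 2 lower, with a median of 1.01. Nothing is read from these counts, calls or refits. The members were chosen on the same arrays, so passing the limits is no test of them.

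In PPARγ2KO against WT, where 0% of probes were called higher or lower, 0 members were called, and the background without overlap was 4.1% higher and 8.55% lower. Only Raet1e among the 9 was without overlap. The means of the granule genes and Klrd1 there depended on the second array. With all 3 arrays the fitted difference from WT was 1.54 for Gzmb, 1.5 for Prf1, 1.12 for Gzma, 1.62 for Klrd1 and 0.53 for Nkg7. Without the second array it was −0.24, 0.39, 0.42, 0.11 and −0.83. Of these genes, Gzmb, Prf1, Gzma and Klrd1 were below detection in WT and Nkg7 was detected on 1 of 3 WT arrays, so the differences are not exact folds. In POKO against ob/ob, where 0.00243% of probes were called higher and 0% lower, 0 members were called.

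**Figure D2:**
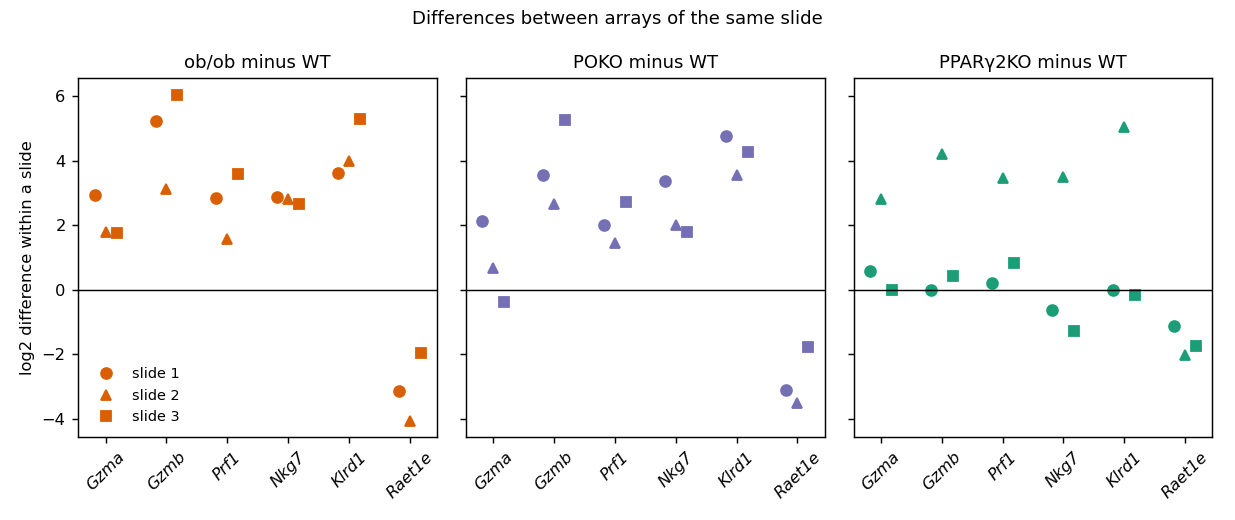
Log2 difference from WT (y axis) between arrays of the same slide for 6 members (x axis), in ob/ob, POKO and PPARγ2KO, with a symbol for each of the 3 slides. In ob/ob all 15 differences of the granule genes and Klrd1 are above 0 and the 3 of Raet1e below it, and in PPARγ2KO the values from slide 2 lie far above those of the other slides for the 5 lymphocyte genes.

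Within slides, the ob/ob difference from WT was 5.23, 3.11 and 6.04 for Gzmb, 2.83, 1.59 and 3.57 for Prf1, and −3.12, −4.05 and −1.96 for Raet1e. The direction was the same on every slide for these 3 genes, which follows from the lack of overlap between ob/ob and WT and adds no check. For Gzma the POKO difference from WT was 2.14, 0.67 and −0.37, so its direction differed between slides.

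Gzma, Gzmb, Prf1, Nkg7 and Klrd1 tended to be high on the same arrays, with a Pearson r of 0.74 to 0.97 between any 2 of them over the 12 arrays. Fasl, Gzmk and Klrk1, which were at or near background, did not share this pattern: their r with Gzmb was 0.23, −0.15 and −0.43. Over the 5 genes the r of Fasl ran from 0.18 with Prf1 to 0.46 with Nkg7. Across the 12 arrays the normalized signals of Gzmb and Prf1 had a Pearson r of 0.96, and those of Nkg7 and Klrd1 an r of 0.97. Without the second PPARγ2KO array these were 0.97 and 0.97. After the mean of each genotype was removed they were 0.97 and 0.96 over all arrays and 0.88 and 0.89 without that array. Over all 10 pairs of the 5 genes, such deviations had an r of −0.14 to 0.89 without it, so likeness within genotypes did not hold for every pair. The arrays share genotypes, slides and overall brightness, so the correlations are descriptions. The genes whose signals were most like that of Gzmb among 13606 detected genes were Hsh2d (0.97), the interferon-induced chemokine Cxcl9 (0.96), Tspan32 (0.96) and the T cell adhesion receptor Cd2 (0.96). For Prf1 they were Cxcl9 (0.96), Jaml (0.94), Slfn1 (0.94), Serpina3f (0.94) and the co-stimulatory receptor Tnfrsf4 (0.94). Nearest to Raet1e were Gpr50 (0.95), Shc4 (0.95), Ptpn4 (0.94), Dact2 (0.94) and Olfr446 (0.93). For Klrk1, which was at background, they were Adgra1 (0.93), Lrrc26 (0.90), Trp73 (0.87), Paqr8 (0.87) and S100a14 (0.86). The Klrk1 probe was detected on no array, so these values describe its background signal and not the receptor transcript.

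The mean signals of the T, B and naive lymphoid marker lists were higher on every ob/ob and POKO array and on the second PPARγ2KO array than on any WT array, although the T and B lists ran in opposite order among the 3 ob/ob arrays. In ob/ob against WT, 7 of 13 T cell markers, 4 of 11 naive lymphoid markers and 6 of 10 B cell markers were called higher, beside 3.56% of all probes. So were 780 of the 17305 named genes. The marker lists were chosen with earlier results of these data known, so their calls are no independent test. Of the other lists, 1 of 11 macrophage, 0 of 6 dendritic, 0 of 9 mast cell and granulocyte and 2 of 11 β-cell markers were called higher. The 1 mast cell or granulocyte marker called lower, beside 1.91% of all probes, was not well above background in ob/ob or WT. Of the acinar markers 0 of 11 were called, on probes near the top of the scale. The macrophage markers had a median difference from WT of 1.09 log2 in ob/ob and 1.42 in POKO. In each, 6 of 11 were higher without overlap, beside 11.3% of all probes in ob/ob and 9.23% in POKO. Their summed linear signal was 4759 to 6198 in WT, 6277 to 7154 in PPARγ2KO, 3667 to 10598 in ob/ob and 6729 to 10664 in POKO, a sum to which the Cd14 probe gave the most signal. The summed mast cell and granulocyte signal was 58.6 to 90.9 in WT, 137 to 624 in PPARγ2KO, 62.3 to 735 in ob/ob and 692 to 7560 in POKO. The summed linear signal of the T cell markers was 773 to 977 in WT, 915 to 2738 in PPARγ2KO, 1877 to 4371 in ob/ob and 1891 to 3308 in POKO. That of the B cell markers was 1523 to 1694 in WT, 1522 to 4793 in PPARγ2KO, 3710 to 7194 in ob/ob and 2917 to 6230 in POKO. Cd8a, the co-receptor of cytotoxic T cells, was detected on no WT array, and its ob/ob level exceeded WT at least 6.49-fold (adjusted p = 0.0373). Its 2 dimmer probes were not called (adjusted p = 0.0627 and 0.168). Of the chains of the T cell receptor complex, Cd3d, Cd3g and Cd247 were called higher (adjusted p = 0.0309, 0.0463 and 0.0410), with Cd3d detected on 1 of 3 WT arrays and the others on none, whereas Cd3e, detected on all 12 arrays, had means of 8.22 in WT and 6.74 in ob/ob with no overlap (adjusted p = 0.118). Cd4 was 5.10 in WT and 4.99 in ob/ob (adjusted p = 0.732). The B cell gene Ms4a1 (CD20), which cytotoxic cells do not use, exceeded WT at least 19.6-fold (adjusted p = 0.0433). Of 25 NK receptor genes 17 were detected by no probe on any of the 12 arrays, among them Ncr1 and Klrb1c (NK1.1), which define NK cells, and so was the transcription factor Eomes. Klrb1a, Klra4 and a dimmer probe of Cd226 were each detected on 1 PPARγ2KO array, and Cd244a, Cd96, Crtam, Slamf7 and Fcgr3 on all ob/ob and POKO arrays. By the brighter probe, Fcgr3 was also detected on all 3 WT and all 3 PPARγ2KO arrays, and Cd244a on 1 WT and all 3 PPARγ2KO arrays. Cd96 was also detected on 1 WT and 1 PPARγ2KO array, Slamf7 on 1 PPARγ2KO array, and Crtam on no other array. In POKO against ob/ob, 11 of 11 β-cell markers were lower, 8 of them without overlap, and 0 were called. Of 7 other endocrine markers 6 were lower, 5 of them without overlap, and 0 were called. Among all 17305 named genes 1802 were lower without overlap. The part of other immune cells and of islet cells in the levels of the members was not tested.

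**Figure D3:**
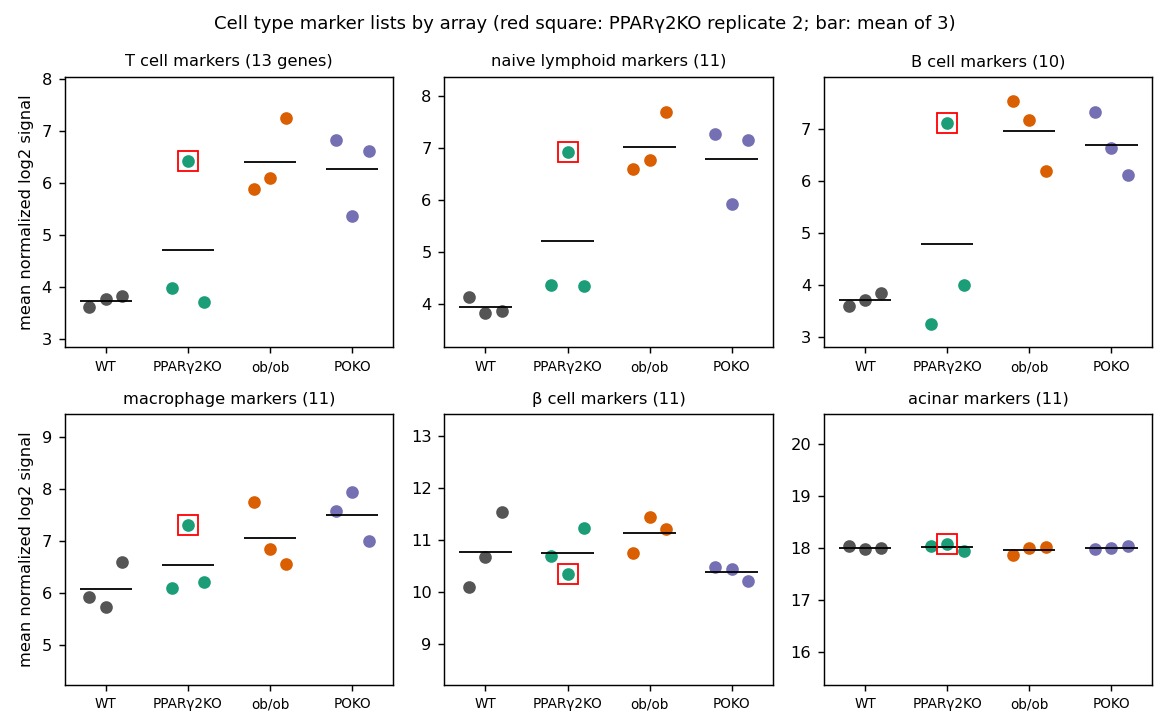
Mean normalized log2 signal (y axis, each panel spanning the same number of log2 units) of 6 marker lists on every array of the 4 genotypes (x axis), with the mean as a bar and a red square on the second PPARγ2KO array. T, naive lymphoid and B cell lists are low in WT and in the other 2 PPARγ2KO arrays and higher in ob/ob and POKO, and the acinar list stays between 17.87 and 18.08.

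The rest of the cytotoxic machinery was examined in companion genes of the same pathways. Of 117 genes listed by role, 102 had a probe. The lists were chosen with earlier results of these data known, so the p-values below are no independent test. In ob/ob against WT, 17 of the 102 were called higher and 1 lower (limma, Benjamini-Hochberg over all probes), beside the 3.56% and 1.91% of all probes. Of the 17305 named genes, each by its brightest probe, 780 were called higher and 376 lower. At an unadjusted p under 0.05 there were 50 of the 102, beside 31.1% of all probes and 6407 of the 17305 named genes. The median difference of the 102 was 0.18 log2. All 17 were higher within each of the 3 slides, but they were called on these same arrays, so this adds no check. The calls rested on few arrays: 1 of the 18 remained without WT array 1, without WT array 2 or without ob/ob array 3, and 3 without ob/ob array 2. With normexp background correction 4 of the 18 were kept, with only the 6 arrays compared 8 were kept, and with the slide as a block 16 were kept.

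Of 17 granule genes other than the members, Srgn alone was called higher, by 2.16 log2 (SE 0.38, adjusted p = 0.0204). Srgn encodes serglycin, the proteoglycan that packs granzymes but is also made by other blood cells. It had 8.84, 8.54 and 9.09 in WT, 8.73, 10.51 and 9.65 in PPARγ2KO, 11.06, 10.66 and 11.23 in ob/ob, and 11.09, 10.85 and 10.90 in POKO, with no overlap between WT and the leptin-deficient arrays. Of the 7 other granzyme genes, Gzmm was detected on all 12 arrays, with means of 6.21 in WT and 6.01 in ob/ob (adjusted p = 0.279). Gzmc was detected on 3 arrays, Gzme and Gzmn on 1 each, and Gzmd, Gzmf and Gzmg on none. Of 9 genes of granule release, 1 was called, Unc13d (Munc13-4, which primes granules for fusion), by 1.69 log2 (SE 0.29, adjusted p = 0.0202).

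Of the 25 NK receptor genes 0 were called in either direction by limma on the brighter probe, with 5 at an unadjusted p under 0.05, and 5 of the 25 were detected on all arrays of at least 1 genotype. This count depends on the probe, since the dimmer probe of Slamf7 was called higher (at least 1.16-fold, adjusted p = 0.0340) and the brighter was not (at least 1.68-fold, adjusted p = 0.118). Crtam, a receptor that activated T cells also carry, was detected on no WT array, and its ob/ob level exceeded WT at least 1.49-fold (adjusted p = 0.0612).

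Of 13 signalling genes, 6 were called higher in ob/ob and 1 lower, with a median of 1.77 log2. Zap70, a kinase that binds the phosphorylated chains of the T cell receptor, was at least 7.38-fold higher (adjusted p = 0.0270). The adaptor Lcp2 (SLP-76) rose by 2.70 log2 (SE 0.55, adjusted p = 0.0270) and the kinase Lck by 2.51 (SE 0.56, adjusted p = 0.0311). The Lcp2 probe was detected on 1 of 3 WT arrays, so its difference is not an exact fold. Zap70, Lcp2 and Lck serve the T cell receptor rather than NKG2D alone. The gene called lower, Sh2d1b1, was not well above background in ob/ob or WT.

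The 2 adaptors of NKG2D were detected on all 12 arrays. Hcst had 4.80, 5.04 and 5.35 in WT, 5.28, 6.72 and 5.55 in PPARγ2KO, 6.67, 6.69 and 7.38 in ob/ob, and 6.58, 6.34 and 6.69 in POKO. The ob/ob arrays lay above all WT arrays, by 1.85 log2 (SE 0.35, adjusted p = 0.0244). Tyrobp, which macrophages and dendritic cells also use, was 1.49 log2 above WT in ob/ob and did not pass the limit (adjusted p = 0.0903). The adaptor transcripts were detected where the receptor transcript Klrk1 was not. The other NKG2D ligands listed, 8 genes of the RAE-1, H60 and ULBP families, had no probe assigned to them here.

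Of 19 genes of death ligands, their receptors and effector cytokines, 4 were called higher. Ltb, a lymphotoxin chain made by T and B cells, had 8.60, 7.26 and 8.95 in WT, 9.88, 11.18 and 10.35 in PPARγ2KO, 11.70, 11.53 and 12.18 in ob/ob, and 11.82, 10.88 and 11.35 in POKO. It was 3.53 log2 higher in ob/ob than in WT (SE 0.48, adjusted p = 0.0126), and all PPARγ2KO arrays also lay above all WT arrays. Lta was at least 1.97-fold higher (adjusted p = 0.0325), and the T cell chemokines Ccl5 and Ccl4 rose by 2.31 (SE 0.40, adjusted p = 0.0200) and 1.65 (SE 0.31, adjusted p = 0.0233). The receptor Fas differed by 0.46 log2 (adjusted p = 0.0582) and Tnf by −0.06 (adjusted p = 0.895).

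Of 19 regulators, 5 were called higher. Il2rb, the receptor chain shared by interleukin-2 and interleukin-15, exceeded its WT level at least 12.3-fold (adjusted p = 0.0327), and Stat4, which carries interleukin-12 signals, rose by 2.61 log2 (SE 0.61, adjusted p = 0.0344). Il21r rose by 2.00 (SE 0.41, adjusted p = 0.0270) and Irf8 by 1.58 (SE 0.40, adjusted p = 0.0389). Tbx21 (T-bet), a regulator of the cytotoxic programme, was detected on all ob/ob arrays and on no WT array, at least 1.37-fold higher, with an adjusted p of 0.107.

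**Figure D4:**
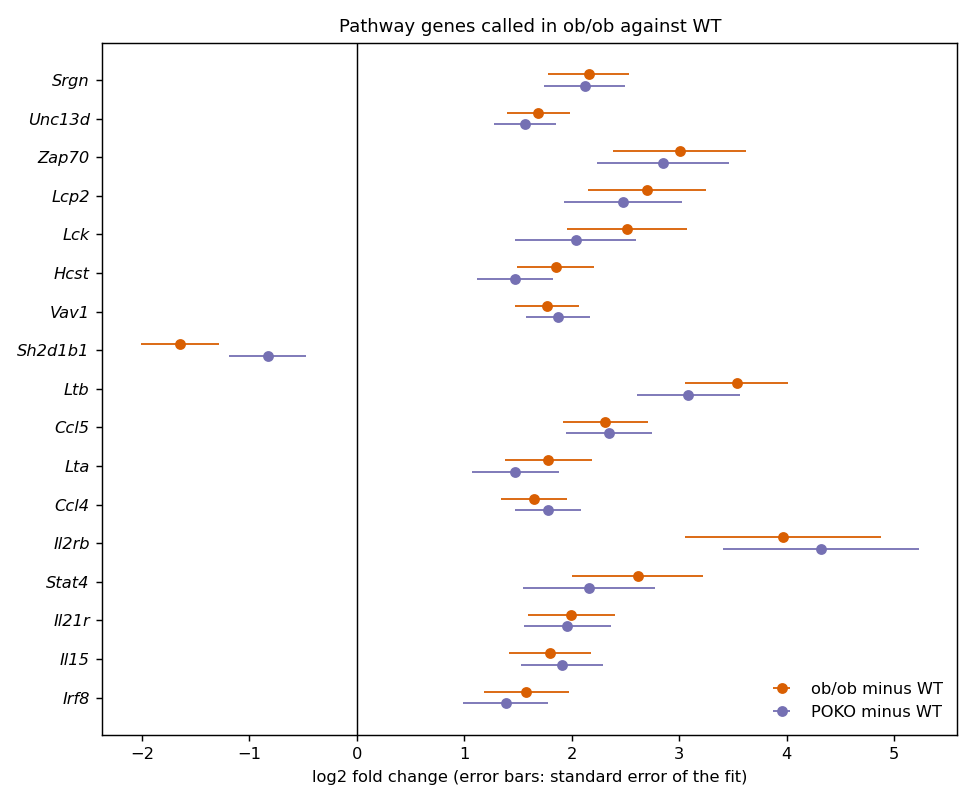
Log2 fold change (x axis) with its standard error for 17 of the 18 companion genes called in ob/ob against WT (y axis, by role), in ob/ob and in POKO. In POKO 16 lie between 1.38 and 4.32 and Sh2d1b1 at −0.83. The fitted values of Zap70, Lta, Il2rb, Il15 and Sh2d1b1 start from a WT level that was not well above background. That of Lcp2 starts from a level detected on 1 of 3 WT arrays.

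In POKO against WT, 0 of the 102 genes were called by limma, beside the 0.151% and 0.0219% of all probes, and 46 had an unadjusted p under 0.05, beside 16.4% of all probes. For the 17 genes called higher in ob/ob, the POKO difference from WT was 1.38 to 4.32 log2 in the 16 shown, without overlap in all 17, beside 9.23% of all probes higher without overlap, with adjusted p from 0.0511 for Ltb to 0.141. Without the second PPARγ2KO array, which enters the shared estimate of spread, 17 genes were called in POKO against WT, beside 1.33% of all probes in that fit, among them Ltb (adjusted p = 0.0168), Hcst (adjusted p = 0.0207) and Il2rb (adjusted p = 0.00654). Both comparisons use the same WT arrays, so nothing is read from their likeness.

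Limma called 0 of the 102 genes in PPARγ2KO against WT (18 at an unadjusted p under 0.05, beside 9.37% of all probes) and 0 in POKO against ob/ob (8, beside 9.28%). In POKO against PPARγ2KO and in ob/ob against PPARγ2KO 0 were called as well, beside 0.00486% of all probes called higher and 0% lower in the former and 0.00243% each way in the latter. At an unadjusted p under 0.05 there were 24 and 26, beside 11.1% and 19.3% of all probes, and without the second PPARγ2KO array 4 and 7 were called, beside 0.544% and 0.714% of all probes in that fit. Whether loss of PPARγ2 acted differently on the obese and lean backgrounds was tested as an interaction, which called 0 of the 102 genes (lowest adjusted p = 0.228) and 0% of all probes in either direction. At an unadjusted p under 0.05 there were 17 genes, beside 13.9% of all probes. Without the second PPARγ2KO array 0 of the 102 genes were called in the interaction and 0 in PPARγ2KO against WT, beside 0.00486% and 0.0461% of all probes.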

How the data were processed

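Islet RNA of 4 genotypes was hybridised to 12 arrays of 1 colour (4x44K), 3 per genotype. Agilent Feature Extraction, version 10.1.1.1 in the submitters' processing notes, gave the deposited intensity, a background-subtracted processed signal. The authors also deposited log2 values that they had normalized, by quantiles in the methods. Here the processed signal was normalized by quantiles over 43379 non-control spots, put on the log2 scale, and spots of a probe averaged, leaving out 919 outlier spots (0 were saturated). Genotype was the only factor of 1 limma fit (limma 3.58.1, R 4.3.3, and data.table in version 1.17.8) over all 12 arrays, with Benjamini-Hochberg over 41174 probes. The methods' array block cannot be fitted with 1 colour. RefSeq accessions named 25097 probes.

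The members and lists were chosen with earlier results of these data known. Named are the members, the NKG2D adaptors, and per list and comparison the called genes with the largest fold changes, at most 4, detected on every array of the brighter group. The other granzymes, all NK receptors, Eomes, Fas, Tnf, Tbx21, Cd8a, Cd3d, Cd3e, Cd3g, Cd247, Cd4 and Ms4a1 were named after their values were seen. The lists of other endocrine and adipocyte markers had 0 and 1 gene called higher in ob/ob against WT.

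A fold against a group with no array well above background is a lower bound, the brighter group's mean over the dim group's detection floor (the lowest detected signal of each array, or the probe's own where higher). Arrays were pools, so the number of arrays limits precision, and p-values measure the spread between pools. Same-numbered arrays share a slide, but their deviations correlated at −0.13 to 0.18 (median 0.03), and the numbers were not treated as pairs. The alternatives were scaling to the 75th percentile, normexp correction of the median signal (offset 50), a detection filter, outlier spots kept, only the groups compared, the slide as a block, array weights, the deposited log2 values, no fold criterion, all probes of a gene averaged, looser limits and each array left out. The code was tested on simulated data. Certain genes that the rule names are not reported here by name, though counts include them.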

Additional observations from a re-analysis of the deposited data

Results flagged for a closer look

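Among the 9 members and 102 companion genes, 2 companion genes had PPARγ2KO arrays all on one side of the WT arrays and POKO arrays all on the opposite side of the ob/ob arrays, a pattern that 1.71% of all probes showed. Ap3b1, a subunit of the adaptor complex that sorts proteins to lysosomes and granules, was −0.20 log2 in PPARγ2KO against WT and 0.18 in POKO against ob/ob, and the interaction did not pass the limit (limma, adjusted p = 0.268). Sh2d1b1, an adaptor of the SLAM receptors, was −1.46 and 0.82 with all arrays below detection (interaction adjusted p = 0.228).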

How the results depend on the processing

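In ob/ob against WT the 18 called companion genes kept their direction under the alternatives that tested them (the detection filter dropped 1) and in each fit with 1 array left out, but the count past the limits fell to 4 with normexp correction and 8 with only the groups compared, and ranged from 1 (without WT array 1, WT array 2 or ob/ob array 3) to 24 with single arrays left out. In POKO against WT, where 0 were called, the count was 11 after scaling to the 75th percentile, 12 with the detection filter, 5 with only the groups compared, 26 with array weights, 2 with the authors' normalized values, 1 with all probes of a gene averaged, and 0 to 17 with single arrays left out (17 without PPARγ2KO array 2, 6 without PPARγ2KO array 1, 5 without WT array 3 and 1 without PPARγ2KO array 3). In ob/ob against PPARγ2KO it was 1 with the detection filter or array weights and 0 to 7 without single arrays, in POKO against PPARγ2KO 1 at the study's looser limit and 0 to 4 without single arrays, and in the interaction 0 to 1 (1 without WT array 3). With the replicate block (slide) 16 genes were called in ob/ob against WT and 0 in each other comparison, and 1 of the 2 members past the limits remained.

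For the members, the median log2 difference from WT fell from 2.17 to 0.11 in ob/ob and from 1.01 to 0.042 in POKO with normexp correction. That alternative adds an offset, which shrinks differences near background, and starts from the median signal in place of the processed signal. The parts of these 2 choices were not separated. Gzmb was then 0.59 and Raet1e −1.30 in ob/ob. With the detection filter the POKO median was 2.39, because fewer members remain. In PPARγ2KO the median ran from −0.35 without the second array to 1.43 without the first. Scaling to the 75th percentile moved the median of all probes to −0.19 in ob/ob and −0.15 in POKO against WT, with Raet1e at −3.00 and −2.76. Of the single-gene values in ob/ob or POKO against WT, 352 moved by less than the spread between arrays and 18 by more, 17 of them under normexp. Signals below detection limit what can be said of Gzmk, Klrk1 and Fasl.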
